A study of Canis lupus familiaris with 6 samples.

Results

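The genes that build cholesterol and fatty acids were examined in RasV12-transformed epithelial cells that had grown either among their own kind or among normal neighbours. The set was fixed by name and holds 39 symbols, from the enzymes of the mevalonate pathway to the regulators SREBF1, SREBF2, SCAP and INSIG1, the fatty acid enzymes and 3 proteins that move sterols. A gene counted as present where the array's own gene name column carried its symbol, which was the case for 33 of the 39, out of 34378 different names on the array. Where a gene had several probes, the probe with the highest mean signal stood for it and the others served as a check.

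The cells were MDCK-pTR GFP-RasV12 cells, a derivative of the Madin-Darby canine kidney (MDCK) line in which tetracycline switches on GFP-tagged RasV12, a constitutively active Ras. In the group termed alone, these cells were cultured by themselves (3 samples), and in the group termed mixed they were cultured with normal MDCK cells (3 samples). Both groups received tetracycline for 24 h, and GFP-positive cells were then sorted from both, so that RasV12 and tetracycline were common to all samples and the neighbours differed. The labels give 10 MDCK cells per RasV12 cell for mixed replicates 1 and 3, and 100 for mixed replicate 2, whereas the treatment text gives 10 for the mixed cultures in general. The extraction text names cells that also carry a β-catenin mutant, whereas the sample names and the study's methods give RasV12 cells without it, which is how they are described here. Total RNA of each sample was hybridised to 1 one-colour Agilent canine array. No source says that the replicates were separate cultures, so the p-values measure the spread between these samples, which may be technical. The labels do not say whether the line is a single clone.

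Of 43603 probes, 60.8% to 66.4% were well above background on an array, and the number of arrays limits the precision. The alone samples shared 1 slide and 1 scan, and the mixed samples shared another, so that neither slide nor scan can be told apart from the neighbours. The epithelial genes EPCAM, CDH1 and KRT18 and the kidney tubule genes PAX8 and CDH16 were well above background on all 6 arrays. Of these 5, 0 were called by limma, and 1, CDH1, was lower in mixed culture at an unadjusted p under 0.05. Every mixed array lay below every alone array for 2 of the 5 and above for 0, against 19.4% and 17.8% of all tested probes. Of 4 leukocyte genes, PTPRC was not well above background on any array, and of 4 fibroblast genes neither was PDGFRA. The other 3 genes of each list were bright enough to be tested, and 0 were called by limma. At an unadjusted p under 0.05, 1 fibroblast gene was higher in mixed culture and 0 leukocyte genes differed (limma). Every mixed array lay above every alone array for 2 of the 3 fibroblast genes and 1 of the 3 leukocyte genes, against 17.8% of all tested probes. The reverse held for 0 genes of either list, against 19.4% of all tested probes. The summed level of the leukocyte genes, on a linear scale with the 75th percentile of each array at 1, was 1.57 to 1.73 alone and 1.73 to 1.82 mixed, and that of the fibroblast genes 1.15 to 1.22 alone and 1.28 to 1.38 mixed. Among 8 tested output genes of the Ras-MAPK pathway, FOSL1 fell by 0.52 and EGR1 rose by 0.77 on the log2 scale (adjusted p = 0.0193 and 0.0157, limma). The other 6 were not called, although the lowest difference, -0.58, was among them. At an unadjusted p under 0.05, 2 of the 8 were lower and 2 higher by limma, against 15.9% and 15.5% of all tested probes.

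Cholesterol is made from acetyl-CoA by way of mevalonate, farnesyl diphosphate, squalene and lanosterol, and fatty acids are made from the same acetyl-CoA, which ATP citrate lyase supplies in the cytosol. Both pathways are controlled by the SREBP transcription factors, which the escort protein SCAP carries from the endoplasmic reticulum to the Golgi for cleavage when sterols are scarce. When sterols are plentiful, INSIG proteins hold SCAP back, and INSIG1 is itself an SREBP target. Proliferating epithelial cells rely on these pathways for membranes.

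Some of the 60-base probes behind the results are shown because each can be read through in at least 1 frame without a stop codon. Those of INSIG1, MSMO1 and ACLY map across a gap in the genome longer than the probe and so bridge a splice junction. The files give the position of a probe and its transcript, but not the exon, so no coding or untranslated part is named. Coordinates are those of the array annotation on canFam3, and letters are written 5′ to 3′ without capitals because no part of a probe is singled out.
INSIG1 (chr16:18263836-18264399, plus strand): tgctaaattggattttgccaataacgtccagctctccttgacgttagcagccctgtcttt
MSMO1 (chr15:61302419-61303747, plus strand): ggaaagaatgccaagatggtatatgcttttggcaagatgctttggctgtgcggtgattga
ACLY (chr9:20965317-20965964, plus strand): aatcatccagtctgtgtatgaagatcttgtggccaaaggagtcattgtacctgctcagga
NPC1 (chr7:64802015-64802074, plus strand): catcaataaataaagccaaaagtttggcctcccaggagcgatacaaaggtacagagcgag
TM7SF2 (chr18:52080228-52080287, minus strand): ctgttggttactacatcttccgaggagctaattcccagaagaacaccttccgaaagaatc

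RasV12 cells from mixed culture had lower signals for 6 of the 33 genes than RasV12 cells cultured alone, and 0 genes had higher signals (limma with Benjamini-Hochberg adjustment over 26535 tested probes, two-sided, adjusted p under 0.05). The 6 were INSIG1, the sterol-synthesis enzymes FDFT1, TM7SF2 and MSMO1, the citrate-cleaving enzyme ACLY and the cholesterol exporter of the lysosome NPC1. Over all tested probes, 5.72% were called lower and 5.5% higher, 11.2% in all. At an unadjusted p under 0.05 limma counted 14 of the 33 genes lower and 1 higher, against 15.9% and 15.5% of all tested probes. The t-test named in the methods, with the same adjustment, called 2 genes lower and 0 higher, against 1.89% and 1.22% of all tested probes. In bulk RNA of this kind, fewer cells of one sort and less RNA per cell cannot be told apart.

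The direction was shared more widely than the calls. Of the 33 genes, 28 had a lower mean in mixed culture, whereas 50.6% of all tested probes did. The median difference over the 33 genes was -0.18 on the log2 scale, against -0.0037 over all tested probes. Every mixed array lay below every alone array for 19 of the 33 genes, which was the case for 19.4% of all tested probes. The reverse, every mixed array above every alone array, held for 2 of the 33 genes and for 17.8% of all tested probes. All 33 probes were well above background on the 6 arrays, so none of these counts depends on a gene that was measured in 1 group only.

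**Figure D1:**
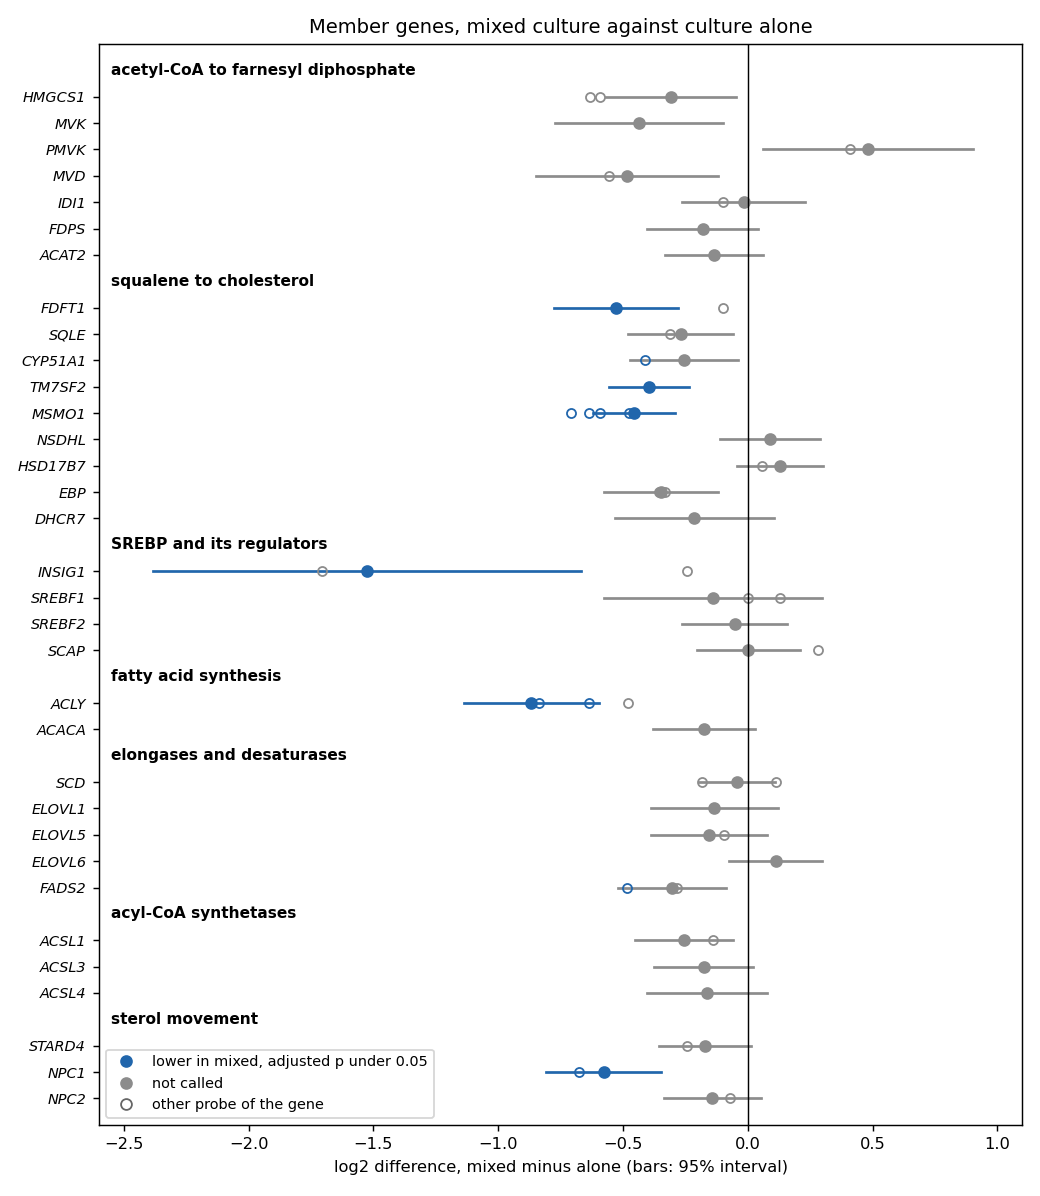
Log2 difference, mixed minus alone (horizontal axis), for each of the 33 genes, in blocks by role, with filled points for the probe that stands for the gene, bars for its 95% interval and open circles for its other probes. Blue marks probes with an adjusted p under 0.05. Most points lie left of 0, INSIG1 lies farthest left at -1.52, and PMVK lies farthest right at 0.48.

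The counts depended on single arrays. Without alone replicate 2, alone replicate 3, mixed replicate 2 or mixed replicate 3, 0 genes were called by limma. Calls were nearly lost across the whole array in these fits, with 0.09%, 0.0263%, 0.0338% and 0.045% of all tested probes called in either direction. At an unadjusted p under 0.05, 9 to 10 of the 33 genes were lower, against 11.2%, 11.2%, 12% and 10.9% of all tested probes, and 28 to 29 of the 33 had a difference below 0. Without alone replicate 1 the same 6 genes and 3 more, HMGCS1, MVD and ACSL1, were called lower and PMVK was called higher, while 13.8% of all probes tested in that fit were called lower and 12.6% higher. Scaling to spike-in controls in place of the 75th percentile moved the median of all tested probes to -0.16, and the median of the 33 genes to -0.34. Under that scaling MVK, MSMO1 and ACLY were called lower and 0 genes higher (1 at an unadjusted p under 0.05), while 2.45% of all tested probes were called lower and 1.07% higher.

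INSIG1, which retains the SREBP escort in the endoplasmic reticulum, fell the furthest. Its log2 intensity, with the 75th percentile of each array at 0, was 2.49, 3.83 and 3.79 in alone replicates 1 to 3 and 2.06, 1.76 and 1.71 in mixed replicates 1 to 3. All mixed values lay below all alone values, and alone replicate 1 lay closer to the mixed arrays than to the other alone arrays. The difference was -1.52 (SE 0.36, 2.88-fold lower, adjusted p = 0.0442, limma), with a 95% interval from -2.38 to -0.67. With the replicate number as a block the adjusted p was 0.0618, and without alone replicate 1 the difference was -1.97 (adjusted p = 0.00381, limma).

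The 3 probes of INSIG1 did not give 1 answer. The probe across a splice junction, shown above, read -0.80, 1.21 and 1.11 in the alone arrays and -0.95, -1.35 and -1.28 in the mixed arrays. Its difference of -1.70 (SE 0.52) was larger in size than that of the first probe but was not called (adjusted p = 0.0827, limma). The probe farthest downstream, at chr16:18270689-18270748, differed by -0.25 (SE 0.19, adjusted p = 0.424, limma), and its groups overlapped. Alone replicate 1 was the lowest alone array at all 3 probes, but at the downstream probe by little, with 0.18 against 0.23 and 0.27.

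The transcription factors themselves showed no called difference. SREBF1, which encodes the SREBP-1 proteins that drive fatty acid synthesis, had values of 4.85, 5.49 and 5.07 alone and of 4.77, 5.10 and 5.13 mixed. The groups overlapped, and the difference was -0.14 with a 95% interval from -0.58 to 0.30 (adjusted p = 0.642, limma). Neither of its other probes was called, and the larger of their differences was 0.13.

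SREBF2, which encodes the sterol-directed SREBP-2, had values of -0.92, -0.87 and -1.06 alone and of -0.89, -1.07 and -1.05 mixed. These groups overlapped too, with a difference of -0.05 and a 95% interval from -0.27 to 0.16 (adjusted p = 0.717, limma). For SCAP, the escort protein, the difference was 0.0018 with an interval from -0.20 to 0.21. The activity of these factors, which depends on cleavage and not on transcript level alone, was not measured.

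**Figure D2:**
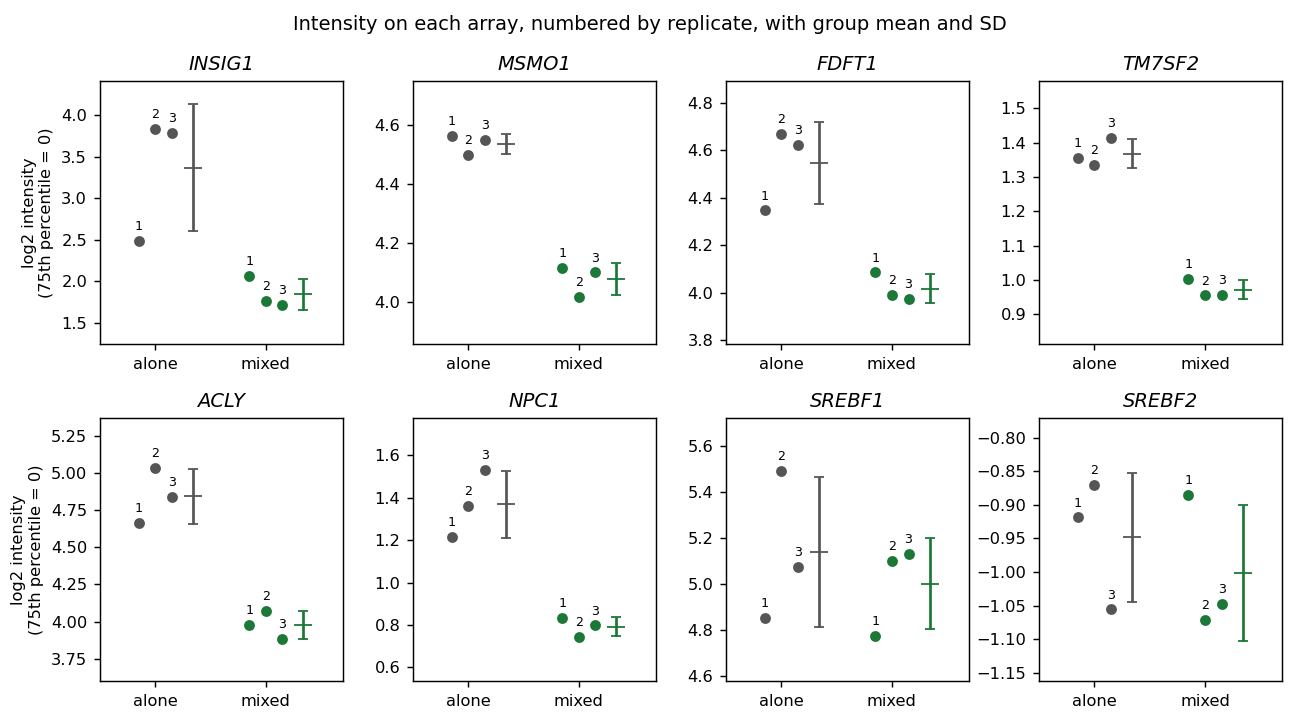
Log2 intensity on each array (vertical axis, 75th percentile of the array at 0, scaled separately for each gene) for the 6 genes called lower and for SREBF1 and SREBF2, with points numbered by replicate and the group mean and SD beside them. The groups are apart for the 6 called genes and overlap for both SREBP genes, and alone replicate 1 of INSIG1, at 2.49, stands below the other alone arrays.

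Of the 7 enzymes from acetyl-CoA to farnesyl diphosphate, 0 were called by limma, against 5.72% of all tested probes lower and 5.5% higher. At an unadjusted p under 0.05, 3 were lower and 1 was higher by limma, against 15.9% and 15.5% of all tested probes. HMGCS1, which condenses acetyl-CoA units to HMG-CoA and is a classical SREBP target, read 3.85, 4.17 and 4.15 alone and 3.84, 3.72 and 3.68 mixed. The groups did not overlap, but alone replicate 1 was only just above mixed replicate 1. The difference was -0.31 (SE 0.11, adjusted p = 0.111, limma), and the other probes of the gene differed by -0.59 and -0.63, also without a call.

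The values of the mevalonate kinases had opposite signs. MVK, which phosphorylates mevalonate, differed by -0.44 (adjusted p = 0.0912, limma), and MVD, which decarboxylates the product of the next step, by -0.48 (adjusted p = 0.0877, limma). PMVK, the kinase between them, differed by 0.48 (SE 0.18, adjusted p = 0.122, limma). Its values were 1.79, 1.13 and 1.18 alone and 1.84, 1.86 and 1.84 mixed, so that alone replicate 1 lay beside the mixed arrays and the other alone arrays below them. The second PMVK probe differed by 0.41. Without alone replicate 1, PMVK was called higher by 0.69 (adjusted p = 0.00469, limma) and MVD lower at -0.65 (adjusted p = 0.00736, limma). For IDI1, FDPS and ACAT2 the differences were -0.02, -0.18 and -0.14.

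Past the branch point, the enzymes from squalene to cholesterol held 3 of the 6 calls among 9 measured genes, against 5.72% of all tested probes called lower. FDFT1, squalene synthase, commits farnesyl diphosphate to sterols. Its values were 4.35, 4.67 and 4.62 alone and 4.09, 3.99 and 3.97 mixed, with no overlap. The difference was -0.53 (SE 0.10, adjusted p = 0.0297, limma), and with the replicate block the adjusted p was 0.0509. A second FDFT1 probe, farther downstream on chromosome 25, differed by only -0.10 (adjusted p = 0.388, limma), and the other probe was well above background on 1 array and was not tested.

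MSMO1, the sterol-C4-methyl oxidase that starts the removal of the C4 methyl groups, was called at every probe. Its values were 4.56, 4.50 and 4.55 alone and 4.12, 4.02 and 4.10 mixed, which left a wide gap between tight groups. The difference was -0.46 (SE 0.07, 1.37-fold lower, adjusted p = 0.019, limma). All 5 of its probes were called lower, from -0.46 to -0.71, among them the junction probe shown above at -0.64. These probes are not independent, since they read the same transcript and some of them overlap.

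TM7SF2, a sterol reductase of the step before C4 demethylation, had a single probe. It read 1.35, 1.33 and 1.41 alone and 1.00, 0.96 and 0.96 mixed, again without overlap. The difference was -0.40 (SE 0.07, 1.32-fold lower, adjusted p = 0.0224, limma).

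SQLE, the squalene epoxidase and a rate-limiting step of sterol synthesis, read 3.32, 3.40 and 3.48 alone and 3.23, 3.01 and 3.15 mixed. Every mixed array lay below every alone array, yet the difference of -0.27 (SE 0.09) was not called (adjusted p = 0.0949, limma). CYP51A1, the lanosterol demethylase, differed by -0.25 at the probe that stands for it and was not called, while its second probe was called lower at -0.41 (adjusted p = 0.0373, limma, and 0.0553 with the replicate block). EBP, a sterol isomerase, differed by -0.35 (adjusted p = 0.064, limma) and DHCR7, the last reductase of the pathway, by -0.21. NSDHL and HSD17B7, which act directly after MSMO1 in C4 demethylation, differed by 0.09 and 0.13 and were not called. Both changed sign, to -0.07 and -0.03, when arrays were scaled to the spike-in controls.

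ACLY, which cleaves citrate to the acetyl-CoA used by both pathways, fell by 0.87 on the log2 scale in mixed culture, 1.82-fold. Its values were 4.66, 5.03 and 4.84 alone and 3.98, 4.07 and 3.88 mixed. The lowest alone array was above the highest mixed array by more than the range of either group. The SE was 0.11 and the adjusted p 0.016 (limma), and of its 4 probes 3 were called, at -0.87, -0.84 and -0.64, with the fourth at -0.48 (adjusted p = 0.0683, limma). With the replicate block the first probe was still called, whereas the next had adjusted p = 0.0623 and 0.0541 (limma). ACACA, acetyl-CoA carboxylase, differed by -0.18 (adjusted p = 0.212, limma).

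FASN, the fatty acid synthase, was not among the 33, because its probe carries a transcript accession in place of a symbol. The description of that probe names fatty acid synthase, and its values are given on that basis. They were 1.83, 2.07 and 2.09 alone and 1.82, 1.60 and 1.56 mixed, with alone replicate 1 barely above mixed replicate 1. The difference was -0.34 (SE 0.11, 95% interval from -0.61 to -0.08, adjusted p = 0.0935, limma). Without alone replicate 1 it was -0.43 (adjusted p = 0.0326, limma).

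Desaturation and elongation held 0 calls among 5 measured genes, with 1 gene lower at an unadjusted p under 0.05. Of all tested probes, 5.72% were called lower and 5.5% higher, and 15.9% were lower at an unadjusted p under 0.05. SCD, the stearoyl-CoA desaturase that makes oleate and is a strong SREBP-1 target, read 6.63, 6.60 and 6.59 alone and 6.57, 6.55 and 6.57 mixed. The difference of -0.04 had a 95% interval from -0.20 to 0.11, and its sign turned to 0.01 under quantile normalization. Its other probes differed by -0.18 and 0.11 without a call. FADS2, the Δ6 desaturase of polyunsaturated fatty acids, differed by -0.31 (adjusted p = 0.077, limma), and 1 of its 3 probes, across a splice junction, was called lower at -0.48 (adjusted p = 0.0371, limma, and 0.0534 with the replicate block). A pair of probes described as FADS1, again outside the 33, differed by 0.13 and 0.08. The elongases ELOVL1, ELOVL5 and ELOVL6 differed by -0.14, -0.16 and 0.11.

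The acyl-CoA synthetases, which activate free fatty acids, held 0 calls among 3 genes, with ACSL1 lower at an unadjusted p under 0.05. Shares over all tested probes were 5.72% called lower, 5.5% called higher and 15.9% lower at an unadjusted p under 0.05. ACSL1, ACSL3 and ACSL4 differed by -0.26, -0.18 and -0.16.

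Among the proteins that move sterols, NPC1, which exports cholesterol from lysosomes, was called lower. It read 1.21, 1.36 and 1.53 alone and 0.83, 0.74 and 0.80 mixed, with no overlap and a wider spread alone. The difference was -0.58 (SE 0.10, 1.49-fold lower, adjusted p = 0.0224, limma), and the second probe, shown above, was called at -0.68 (adjusted p = 0.0183, limma). NPC2, which hands cholesterol to NPC1 in the lysosome, differed by -0.14, and STARD4, a cytosolic sterol carrier, by -0.17. Neither was called. Every mixed array lay below every alone array for both, as for 19.4% of all tested probes.

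Within the alone group the genes did not move together. Alone replicate 1 lay below both other alone arrays for 15 of the 33 genes and above both for 14, and over all tested probes it lay below both for 38.8% and above both for 46.8%. The genes with the lowest alone replicate 1 relative to the mean of the other alone arrays were INSIG1 (-1.32), MVD (-0.51), SREBF1 (-0.43), HMGCS1 (-0.31), FDFT1 (-0.30) and ACLY (-0.27). At the other end, PMVK was higher there by 0.63 and MVK by 0.43.

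Interferon-stimulated genes code for antiviral proteins. Alone replicate 1 lay above both other alone arrays for 7 of 10 such genes and below both for 1. Over all tested probes the shares were 46.8% and 38.8%. These genes were chosen because earlier results of these arrays had shown them to differ between the groups. Their calls therefore repeat a known difference. Of 10 such genes tested, 7 were called higher in mixed culture, from 0.87 for IFIT3 to 2.09 for MX1, against 5.5% of all tested probes. With the replicate block 5 of them were called, while MX1 and ISG15 were not (adjusted p = 0.0504 and 0.0595, limma). MX1 read 2.40, 1.12 and 1.44 alone and 3.18, 3.90 and 4.15 mixed, with alone replicate 1 again nearest to the mixed arrays. The summed level of the 10 genes was 56.0 to 102 alone and 125 to 156 mixed. The part of this difference in the results for INSIG1, HMGCS1, MVD and PMVK was not tested.

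**Figure D3:**
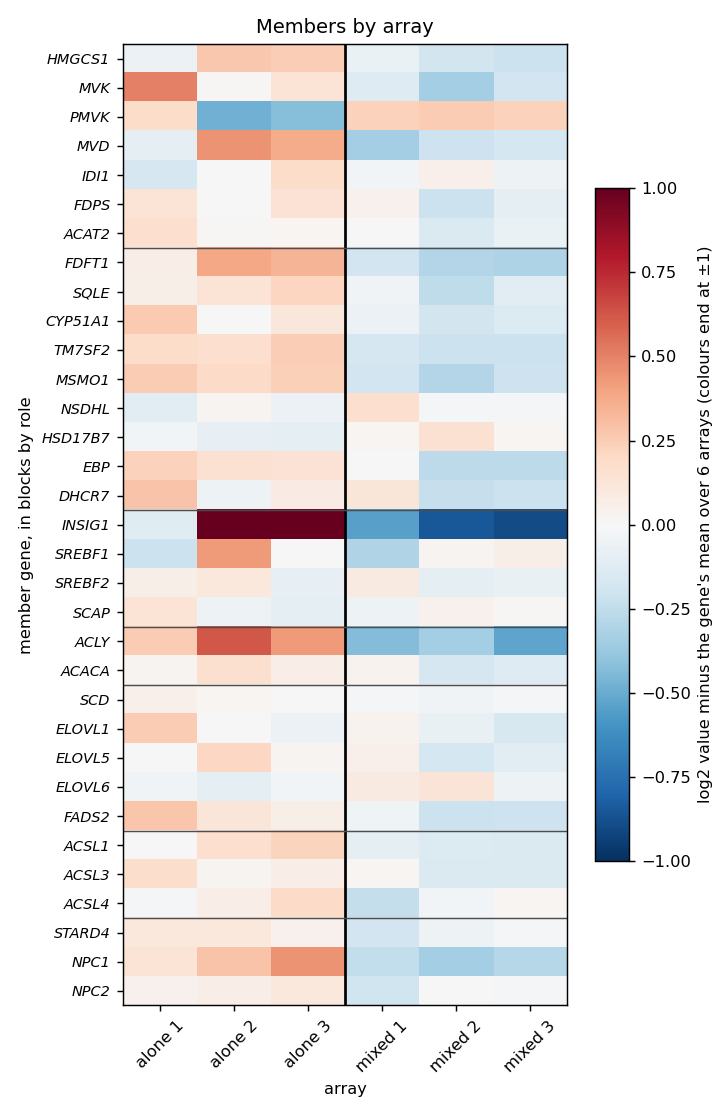
Log2 value of each of the 33 genes on each array minus the mean of that gene over the 6 arrays (red higher, blue lower, colours end at ±1), with genes in blocks by role and a vertical line between alone and mixed arrays. INSIG1 is dark red in alone replicates 2 and 3 and pale in alone replicate 1, whereas MSMO1 and TM7SF2 are alike in the 3 alone arrays.

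Further genes of the same pathways were taken from lists of other synthesis genes and of sterol traffic. Of 21 other synthesis genes tested, 2 were called lower and 0 higher, against 5.72% and 5.5% of all tested probes. A difference below 0 was found for 17 of the 21, against 50.6% of all tested probes. The median was -0.15, against -0.0037. At an unadjusted p under 0.05, 8 were lower and 1 higher by limma, against 15.9% and 15.5% of all tested probes. ACSS2, which makes acetyl-CoA from acetate and so feeds the same pool as ACLY, read -2.25, -1.77 and -1.80 alone and -2.64, -2.77 and -2.66 mixed. Its difference was -0.75 (SE 0.14, adjusted p = 0.0264, limma), and the groups did not overlap. PTPLA, a dehydratase of the fatty acid elongation cycle, fell by 0.41 on the log2 scale (SE 0.08, adjusted p = 0.0288, limma).

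Of 14 tested genes of sterol sensing, uptake, storage and efflux, 2 were called higher and 0 lower, against 5.5% and 5.72% of all tested probes. A difference below 0 was found for 5 of the 14, against 50.6% of all tested probes, and the median was 0.06. At an unadjusted p under 0.05, 3 were higher and 1 lower by limma, against 15.5% and 15.9% of all tested probes. ABCA1, which exports cholesterol to apolipoproteins and is a classical target of the liver X receptors, read -4.69, -5.00 and -5.05 alone and -3.95, -4.15 and -4.16 mixed. The difference was 0.83 (SE 0.12, 1.78-fold higher, adjusted p = 0.0183, limma) with no overlap. With normexp background correction the difference was 0.30 and not called (adjusted p = 0.0569, limma). LIPA, the lysosomal lipase that frees cholesterol from its esters, read 1.39 to 1.52 alone and 1.94 to 2.13 mixed. It was higher by 0.59 (SE 0.08, 1.51-fold, adjusted p = 0.0177, limma), and it works in the same compartment as NPC1, which was lower. Whether the shift differed between the synthesis genes and the traffic genes was not tested.

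**Figure D4:**
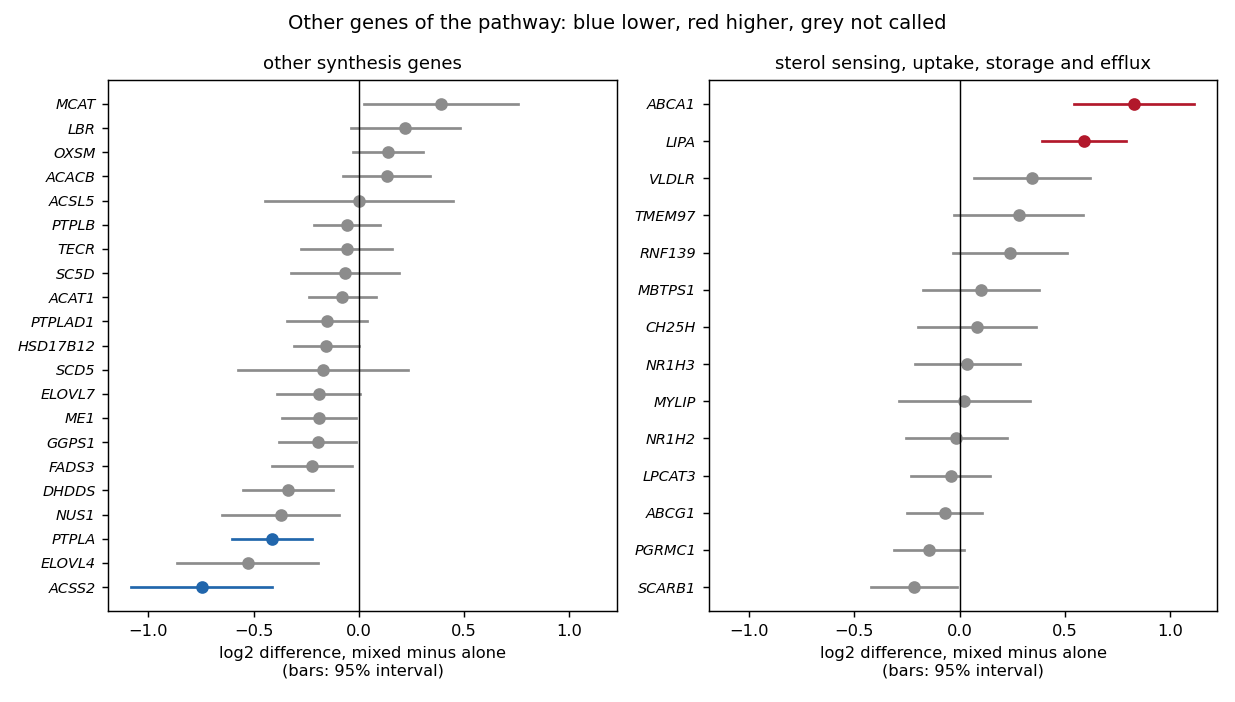
Log2 difference, mixed minus alone (horizontal axis, with 95% intervals), for 21 other synthesis genes and 14 genes of sterol sensing, uptake, storage and efflux, each sorted by its difference. ACSS2 and PTPLA (blue) were called lower, ABCA1 and LIPA (red) higher, and grey genes were not called.

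Some names of the set remained without a value of their own. SC4MOL is an older name of MSMO1, and SC5DL stands on the array as SC5D, the sterol-C5-desaturase, which differed by -0.07 and is counted with the other synthesis genes. LSS and INSIG2 were not found under these names and were not analysed here.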

How the data were processed

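RNA of 6 samples was hybridised to one-colour arrays, and groups were taken from the culture condition in the labels. The authors deposited the output of Agilent Feature Extraction 10.10.1.1 for each array, with an intensity per spot that was corrected for background and not scaled between arrays. They also deposited a log2 table of 26529 probes, which equals the log2 processed intensity minus each array's 75th percentile within 0.01. From the scanner output, control spots and outlier-flagged spots were left out, spots of 1 probe were averaged, and each array's 75th percentile (592 to 700 units of intensity) was subtracted on the log2 scale. Testing required that all arrays of the alone group, or all of the mixed group, had the probe well above background. Mixed and alone were compared two-sided with limma 3.58.1 (lmFit and eBayes, R 4.3.3) at a Benjamini-Hochberg adjusted threshold of 0.05 over 26535 probes, and the procedure was tested on simulated data. Tables and plots were made with Python 3.11.15, pandas 2.3.3, numpy 2.4.6 and matplotlib 3.10.9.

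Members and lists were chosen with earlier results of these data known. Values on every array are given for members past the threshold and for HMGCS1, SQLE, INSIG1, SREBF1, SREBF2, FASN and SCD, and values of PMVK and MX1 were added after they were seen. Genes of the other lists are named where they passed the threshold. A further 3 genes of those lists are not reported here. Arrays of equal replicate number correlated, after removal of group means, at 0.349, 0.162 and 0.296 over 26529 probes. Alone replicate 2 correlated more with mixed replicate 3 (0.238) than with mixed replicate 2. Alone replicate 3 and mixed replicate 2 correlated at 0.089, and pairs of replicate 1 with another number at -0.329 to -0.158. The numbers were taken to pair the samples, which is unclear for replicates 2 and 3. A fit with a replicate block was run beside the unblocked one. The replicate number is also the position on the slide. The other settings tried were spike-in scaling, the mean over a gene's probes, leaving out each array, the methods' t-test, normexp background correction (offset 50), a 2-fold threshold, quantile normalization, the log2 table as deposited, and testing either every probe or those well above background on 6 of 6 arrays.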

Additional observations from a re-analysis of the deposited data

How the results depend on the processing

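The 6 genes called lower kept a difference below 0 under all alternatives run, and the median over the 33 genes stayed between -0.17 and -0.34, the latter with spike-in scaling. The number of genes called lower was 4 with quantile normalization, 9 with normexp background correction, 3 with spike-in scaling and 2 with the methods' t-test. Over all 26535 tested probes, 1539, 1996, 651 and 502 were called lower in the same order, against 1519 in the main fit. The count was 1 gene with the 2-fold threshold and 5 with the mean over a gene's probes. Without the filter on dim probes 0 genes were called lower, against 6 of 43603 probes. There, 14 genes were lower at an unadjusted p under 0.05, and the share of all probes was not computed. Leaving out single arrays gave 0 to 9 genes lower and 0 to 1 higher, with medians from -0.24 to -0.19. The replicate block left 4 of the 6 calls, losing INSIG1 and FDFT1, and changed no other call among the members or the other pathway genes at the probe that stands for each gene. At further member probes it ended a call at 2 of ACLY, 1 of CYP51A1 and 1 of FADS2. Over all probes 2978 were called in either direction, against 2991 with quantile normalization, 3977 with normexp and 935 with spike-in scaling. The count was 12 without the filter, 826 with the t-test, 300 with the 2-fold threshold and 7 to 7335 without single arrays. Of the other pathway genes, 2 were called lower, against 5 with normexp, 1 with spike-in scaling and 0 without the filter, with the t-test or with the 2-fold threshold, and 0 to 5 without single arrays. Called higher were 2, against 1 with normexp, with spike-in scaling or with the t-test, 0 without the filter or with the 2-fold threshold, and 0 to 5 without single arrays. Where these counts were 0 in a test without a fold threshold, 5 to 12 of the 35 genes were lower at an unadjusted p under 0.05. By the same rule, 2 to 3 were higher. Without alone replicate 2 or 3 or mixed replicate 2 or 3, 5 were lower, against 10.9% to 12% of all tested probes. For the other such settings, and for higher probes in these fits, the share was not computed. SCD turned to 0.015 with quantile normalization, and SREBF1 ranged from -0.28 to 0.038 without single arrays (the latter without alone replicate 2), neither called. The cause of these shifts was not tested. No depth is recorded for arrays, and the 33 probes were all well above background.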
